A study of Mus musculus with 11 samples.

Results

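The collagen genes are the 44 genes, of 36670 in the deposited table, whose name reads Col, a number, the letter a and a number. The rule reads gene names only. All 44 had estimated counts and FPKM, a level per transcript length and per sequenced fragments, in each of 11 RNA-Seq libraries of mouse dorsal root ganglia (DRGs). DRGs contain the somata of sensory neurons, wrapped by satellite glial cells, together with Schwann cells, vessels, macrophages and a sheath of connective tissue. The study asked how *Gpr37l1*, which encodes a G protein-coupled receptor of satellite glial cells, bears on neuropathic pain, including pain after the chemotherapy drug paclitaxel (PTX).

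The libraries fell into 4 groups: WT mice labelled Control (n = 3), WT mice 4 weeks after PTX (n = 3), *Gpr37l1* KO mice labelled Control (n = 3) and *Gpr37l1* KO mice 4 weeks after PTX (n = 2). The study describes adult mice of both sexes, a KO strain that carries a targeted *Gpr37l1* allele (tm1Lex), and littermates on a C57BL/6 background. It gives an age range for the adult mice of its behavioural and biochemical work and speaks of naive, noninjured mice where it introduces its RNA-Seq. The sample labels give no age, ganglion level or number of ganglia for a library. Each group held 1 library labelled female, replicate 3, and the others were labelled male, so sex cannot be told apart from replicate number 3. *Gpr37l1* was at 14.6 to 35.7 FPKM in the 6 WT libraries and at 0.21 to 1.15 FPKM in the 5 KO libraries. Defining genes of the tissue were present throughout: 8 markers of sensory neurons summed to 3721 to 4614 FPKM and 8 markers of satellite glia to 1072 to 1507 FPKM. Library totals ran from 52735648 to 80348732 counts, and both KO PTX libraries were at the lower end (54914928 and 56747335). The KO PTX library of replicate 2 stood apart, since it had the lowest summed collagen FPKM of the 11, and the main counts and fitted values that it moves most are given with and without it.

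Collagen chains assemble in groups into long helical molecules that are secreted into the extracellular matrix. Fibril-forming collagens give connective tissue its tensile strength, type IV collagen builds the network of basement membranes, and type VI collagen forms beaded filaments that link cells to the matrix. In ganglia and peripheral nerve they make up the sheath, the matrix between axons, and the basement membranes around Schwann cells, satellite glia and vessels, and fibroblasts are the main source of the fibrillar types.

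Collagen mRNA made up a small share of the ganglion. The 44 genes held 0.0452% to 0.0885% of all FPKM in a library, with a mean of 0.0696%. Of the summed collagen FPKM, 74.3% came from the 10 highest genes. Fibril-forming chains held 46.6% of it, chains of the basement membrane network 12.7%, chains of beaded filaments 11.3%, fibril-associated chains 8.32%, the multiplexins *Col15a1* and *Col18a1* 6.49%, transmembrane chains 3.57% and short-chain networks 2.06%. *Col28a1*, *Col7a1* and *Col26a1*, which fit none of these classes, held the other 8.97%.

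The highest mean over the 11 libraries was that of *Col1a2*, a chain of type I collagen, at 21.7 FPKM (11.7 to 29.4). *Col3a1*, the chain of type III collagen, followed at 20.7 FPKM (8.08 to 34.0) and *Col1a1*, the partner of *Col1a2*, at 19.9 FPKM (8.22 to 31.9). Next in order were *Col28a1* at 16.5 FPKM, *Col5a3* at 15.7 FPKM, *Col4a1* at 14.3 FPKM, *Col6a1* at 12.9 FPKM, *Col4a2* at 10.04 FPKM, *Col15a1* at 8.72 FPKM and *Col16a1* at 7.73 FPKM. No neighbours among these 10 differed by more than the SDs of their libraries, so the places next to each other in this order are not resolved. *Col28a1*, a chain known from peripheral nerve and its glia, varied least among the first 4, from 12.3 to 20.2 FPKM. In all, 8 collagens had a mean above 10 FPKM and 24 a mean above 1 FPKM.

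**Figure D1:**
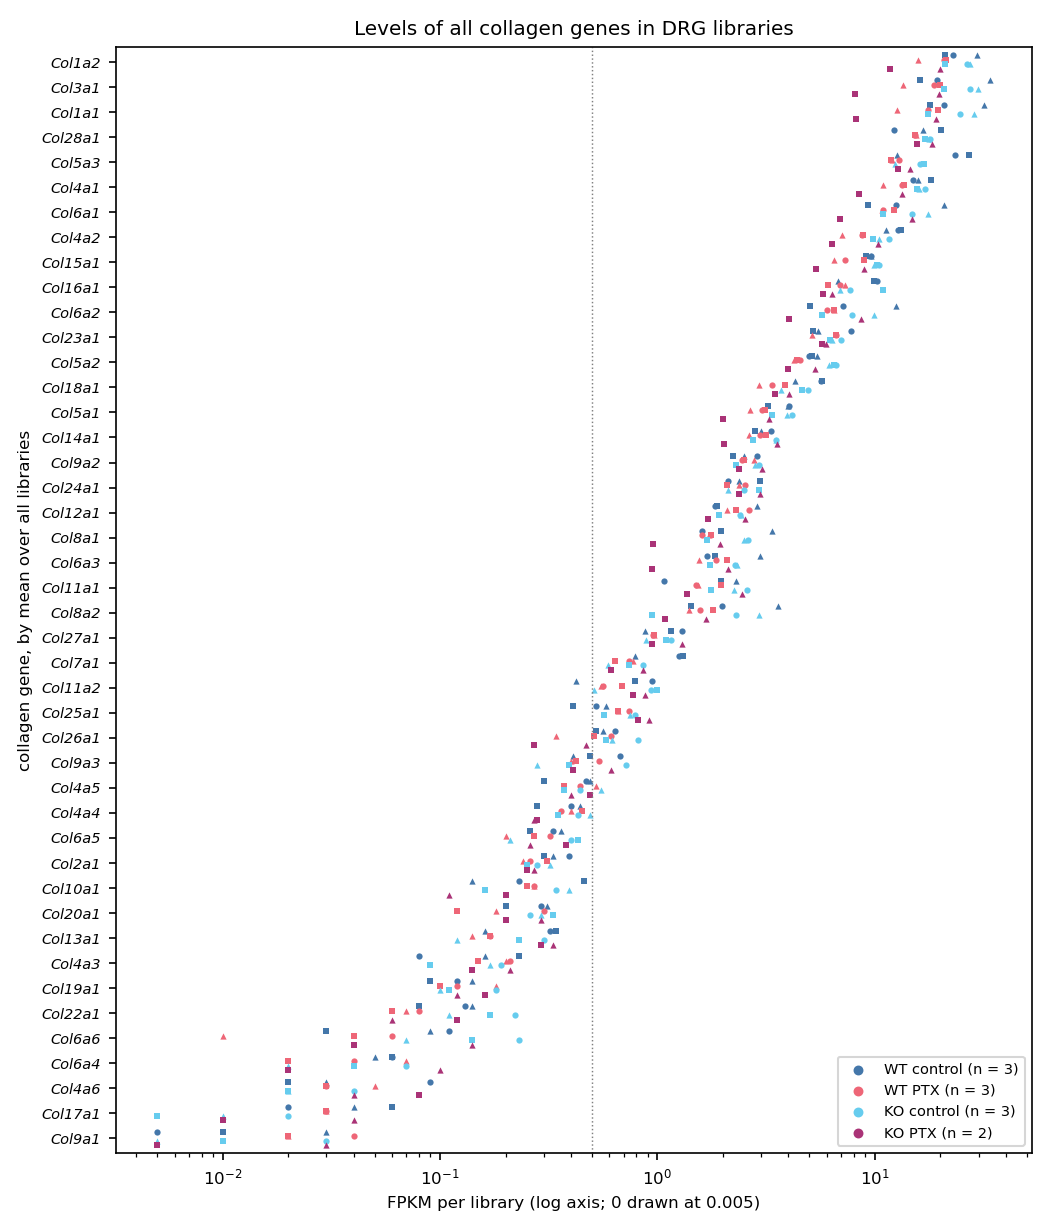
Levels of all 44 collagen genes in the 11 libraries, in FPKM on a log axis, ordered by the mean over all libraries; colours give the 4 groups, circles, squares and triangles give replicates 1, 2 and 3, and the dotted line marks 0.5 FPKM. *Col1a2*, *Col3a1* and *Col1a1* lead, and the KO PTX square is the lowest point in most of the first 20 rows.

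At the other end, 16 collagens had a mean under 0.5 FPKM and were left out of the tests: *Col9a3*, *Col4a5*, *Col4a4*, *Col6a5*, *Col2a1*, *Col10a1*, *Col20a1*, *Col13a1*, *Col4a3*, *Col19a1*, *Col22a1*, *Col6a6*, *Col6a4*, *Col4a6*, *Col17a1* and *Col9a1*. The nearest genes on either side of that limit were *Col26a1* at 0.539 FPKM and *Col9a3* at 0.486 FPKM. *Col17a1*, a chain of hemidesmosomes, and *Col9a1* were listed at 0 in at least 1 library. Collagens that characterise cartilage were mostly low. *Col2a1*, the main fibril chain of cartilage, was at 0.24 to 0.39 FPKM, *Col10a1*, a product of hypertrophic chondrocytes, at 0.11 to 0.46 FPKM, and *Col9a1* at no more than 0.04 FPKM. Others of the same list were higher. *Col9a2* was at 2.23 to 3.02 FPKM, *Col11a1* at 1.07 to 2.57 FPKM, *Col11a2* at 0.42 to 0.99 FPKM and *Col9a3* at 0.28 to 0.72 FPKM.

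Chains of several higher pairs kept closer ratios to each other than their levels did between libraries. *Col6a1* and *Col6a2* each varied over 3-fold between libraries (3.02-fold and 3.13-fold), but the ratio of *Col6a1* to *Col6a2* stayed between 1.66 and 1.90, a range of 1.15-fold. *Col4a1* to *Col4a2* ran from 1.18 to 1.59 (1.35-fold) while the genes themselves varied 2.15-fold and 2.07-fold. In WT this ratio was 1.18, 1.37 and 1.40 in controls and 1.52, 1.55 and 1.55 after PTX. In KO it was 1.45, 1.59 and 1.53 in controls and 1.32 and 1.28 after PTX. The PTX ratios thus lay above all controls in WT and below all controls in KO, which was not tested. *Col1a1* to *Col1a2* ran from 0.700 to 1.08 (1.55-fold), against 3.88-fold for *Col1a1* and 2.50-fold for *Col1a2*. *Col5a1* to *Col5a2* lay between 0.501 and 0.809, a range of 1.61-fold that was little less than the 1.66-fold of *Col5a2* itself. *Col6a3* to *Col6a1* lay between 0.131 and 0.197. Looser pairs were *Col8a1* to *Col8a2*, at 0.813 to 1.80, and the low pairs *Col4a3* to *Col4a4*, at 0.200 to 0.821, and *Col4a5* to *Col4a6*, at 5.22 to 27.5. The ratios of these low pairs varied more than their genes, 4.11-fold against 2.88-fold and 1.81-fold for *Col4a3* and *Col4a4*, and 5.27-fold against 1.83-fold and 4.5-fold for *Col4a5* and *Col4a6*. *Col9a1* to *Col9a2* never passed 0.0163. *Col4a6* had 11 to 40 counts per library. The ratios are descriptions, and the chains of a pair share a library and its depth.

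**Figure D2:**
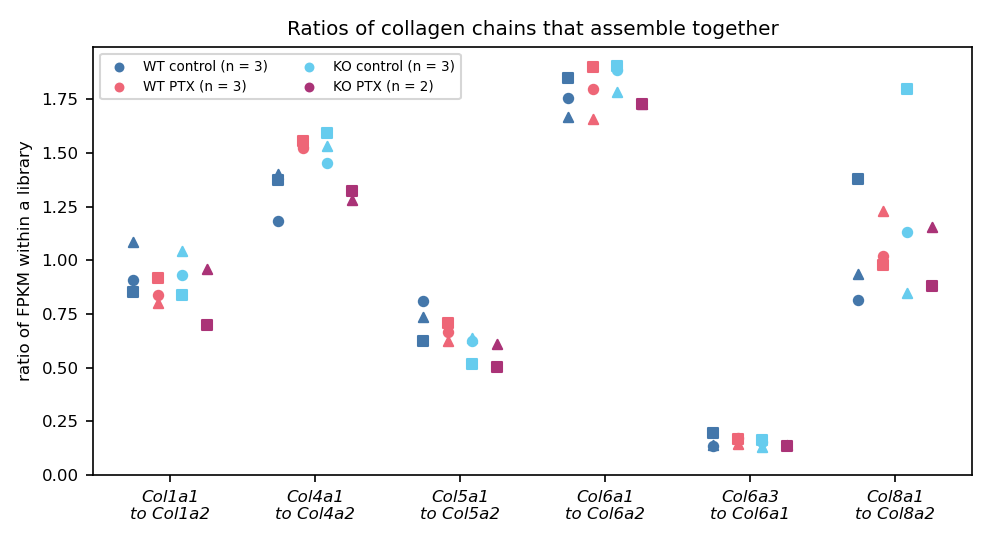
Ratio of the FPKM of 2 chains within each library for 6 pairs, by group; circles, squares and triangles are replicates 1, 2 and 3. *Col6a1* to *Col6a2* stayed between 1.66 and 1.90, while *Col8a1* to *Col8a2* spread from 0.813 to 1.80.

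Some of these pairs also lie together in the genome. On chromosome 8 of GRCm38, *Col4a1* (11198423 to 11312826, minus strand) and *Col4a2* (11312805 to 11449287, plus strand) start 21 bases apart and overlap at their first exons. *Col4a3* and *Col4a4* on chromosome 1 start 72 bases apart, and *Col4a5* and *Col4a6* on chromosome X start 1309 bases apart. *Col3a1* (chromosome 1, 45311538 to 45349706) and *Col5a2* (45374321 to 45503282) lie tail to tail with 24614 bases between them. The library kit kept strands apart, but the sources used here do not state that the counting did. For the 18 collagens that overlap a gene on the other strand, 5 of them a protein-coding gene, the counts are therefore uncertain. Among the 18 are *Col4a1*, *Col4a2* and *Col18a1*, which overlap a protein-coding gene, and *Col5a1*, *Col5a3* and *Col15a1*, which overlap others. Counts are uncertain too where a collagen overlaps a gene on the same strand, which strands do not separate. *Col1a2*, *Col3a1*, *Col5a2*, *Col25a1* and *Col26a1* are among these.

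The first comparison asked how the DRGs of WT mice differed 4 weeks after PTX. Summed collagen FPKM was 213, 211 and 250 in the WT controls and 180, 186 and 156 after PTX, and the groups did not overlap. Fibril-forming chains summed to 101, 97.8 and 124 FPKM against 83.6, 86.3 and 66.5 FPKM, and basement membrane chains to 28.8, 32.1 and 28.3 FPKM against 23.1, 23.4 and 19.2 FPKM. Both sums were lower in every PTX library than in every control. Gene by gene, 25 of the 28 collagens tested had a fitted log2 fold change below 0, against 51.2% of all 15087 genes tested, and the median was -0.26, against -0.0058 over all genes. Without WT PTX replicate 3 the median was -0.11. None of the 28 passed an adjusted p of 0.05 with edgeR's quasi-likelihood test and Benjamini-Hochberg adjustment (0.00663% of all genes did), and 7 had an unadjusted p under 0.05 (13.5% of all genes). Of these, 6 were lower (6.87% of all genes) and 1 was higher (6.59%).

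*Col18a1*, the multiplexin of basement membranes from which endostatin is cut, was at 5.65, 5.69 and 4.29 FPKM in WT controls and at 3.36, 3.88 and 2.94 FPKM after PTX, and all PTX libraries were below all controls. Its log2 fold change was -0.62 ± 0.13 (SE, adjusted p = 0.203, edgeR). With DESeq2 the adjusted p was 0.00139. Part of *Col18a1* lies opposite *Slc19a1*, a folate carrier gene on the other strand. *Col4a2* was at 12.7, 13.2 and 11.3 FPKM in WT controls and at 8.75, 8.79 and 7.06 FPKM after PTX, again without overlap. Its log2 fold change was -0.60 ± 0.16 (SE, adjusted p = 0.238, edgeR), and DESeq2 gave an adjusted p of 0.0126. *Col18a1* and *Col4a2* were the 2 collagens that DESeq2 called in this comparison, in which it called 2.05% of all genes.

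*Col4a1*, the partner of *Col4a2*, was at 15.1, 18.1 and 15.9 FPKM in WT controls and at 13.3, 13.7 and 10.9 FPKM after PTX, a log2 fold change of -0.37 ± 0.15 (SE, adjusted p = 0.348, edgeR). *Col5a2*, a type V chain that helps set the width of type I fibrils, was at 4.96, 5.13 and 5.43 FPKM in WT controls and at 4.54, 4.38 and 4.25 FPKM after PTX (log2 fold change -0.24 ± 0.10, SE, adjusted p = 0.349, edgeR). The groups did not overlap for either gene. *Col7a1*, the chain of anchoring fibrils, was at 1.25, 1.31 and 0.79 FPKM in WT controls and at 0.74, 0.64 and 0.77 FPKM after PTX (-0.62 ± 0.22, SE, adjusted p = 0.313, edgeR). The groups of *Col7a1* did not overlap either, but the lowest control was only just above the highest PTX library.

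*Col5a3*, a type V chain, was at 23.4, 27.1 and 12.6 FPKM in WT controls and at 12.96, 11.85 and 11.95 FPKM after PTX. The groups overlapped, because WT control replicate 3 was at the level of the PTX libraries. Its log2 fold change was -0.74 ± 0.20 (SE, adjusted p = 0.238, edgeR), and without WT control replicate 3 it was -1.02 with an adjusted p of 0.0389 (edgeR), the sole collagen call of any leave-one-out fit for PTX in WT. *Col25a1*, a transmembrane collagen made by neurons, went the other way. It was at 0.52, 0.41 and 0.58 FPKM in WT controls and at 0.74, 0.66 and 0.66 FPKM after PTX, without overlap, and its log2 fold change was 0.45 ± 0.15 (SE, adjusted p = 0.303, edgeR). In FPKM, 7 collagens were lower after PTX in WT with no overlap of the groups (*Col15a1*, *Col18a1*, *Col4a1*, *Col4a2*, *Col5a1*, *Col5a2* and *Col7a1*; 7.37% of all genes) and *Col25a1* alone was higher (6.81%).

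The interstitial fibril chains were lower in the PTX means of WT mice but overlapped. *Col1a1* was at 20.86, 17.98 and 31.9 FPKM in WT controls and at 17.6, 19.6 and 12.7 FPKM after PTX (-0.43 ± 0.27, SE, adjusted p = 0.490, edgeR). *Col1a2* was at 22.95, 21.04 and 29.4 FPKM against 20.9, 21.4 and 15.8 FPKM (-0.32 ± 0.18, SE, adjusted p = 0.457, edgeR). *Col3a1* was at 19.3, 16.2 and 34.0 FPKM against 18.76, 20.03 and 13.5 FPKM (-0.31 ± 0.29, SE, adjusted p = 0.634, edgeR). Without WT PTX replicate 3 the fitted values were -0.08 for *Col1a1*, -0.08 for *Col1a2* and 0.06 for *Col3a1*. For these genes WT control replicate 3 was the highest of all 11 libraries and WT PTX replicate 3 the lowest of the WT libraries. Among replicates 1 and 2 the control and PTX levels lay close together, with *Col1a1* at 20.86 and 17.98 FPKM against 17.6 and 19.6 FPKM.

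The same question in *Gpr37l1* KO mice rested on 2 PTX libraries, and these differed from each other. Summed collagen FPKM was 234, 200 and 235 in the KO controls, 128 in KO PTX replicate 2 and 201 in KO PTX replicate 3. Fibril-forming chains summed to 113, 93.0 and 115 FPKM in KO controls and to 52.5 and 89.8 FPKM after PTX, and basement membrane chains to 29.7, 26.3 and 27.7 FPKM against 15.8 and 24.6 FPKM. The fitted change was below 0 for 23 of the 28 collagens (52.7% of all genes), with a median of -0.39 (-0.0089 over all genes). None passed the threshold (0.00663% of all genes, edgeR), while 9 had an unadjusted p under 0.05 (4.32% of all genes). All 9 were lower, beside 2.57% of all genes, and none was higher, beside 1.75%. Without KO PTX replicate 2, 1 collagen was lower at that level (2.90% of all genes in the same fit) and the median was -0.04. With replicate 3 left out in its place, 16 were lower (3.01% of all genes) and the median was -0.69.

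*Col5a2* was at 6.62, 6.49 and 6.17 FPKM in KO controls and at 3.99 and 5.32 FPKM after PTX, both below the controls. Its log2 fold change was -0.48 ± 0.11 (SE, adjusted p = 0.999, edgeR), -0.24 without KO PTX replicate 2, and *Col5a2* was the one collagen that DESeq2 called here (adjusted p = 0.0441; 0.192% of all genes). *Col1a2* was at 26.5, 20.9 and 27.6 FPKM in KO controls and at 11.7 and 19.9 FPKM after PTX (-0.71 ± 0.21, SE, adjusted p = 0.999, edgeR; -0.36 without replicate 2). *Col3a1* was at 27.3, 20.78 and 29.99 FPKM in KO controls and at 8.08 and 19.7 FPKM after PTX. It had the lowest fitted value of any collagen in this comparison, -1.06 ± 0.33 (SE, adjusted p = 0.999, edgeR), and -0.56 without replicate 2.

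*Col4a1* was at 16.9, 15.7 and 16.0 FPKM in KO controls and at 8.43 and 13.3 FPKM after PTX (-0.58 ± 0.18, SE, adjusted p = 0.999, edgeR; -0.18 without replicate 2). *Col5a1*, the partner of *Col5a2*, was at 4.14, 3.37 and 3.94 FPKM in KO controls and at 2.0 and 3.25 FPKM after PTX (-0.58 ± 0.19, SE, adjusted p = 0.999, edgeR; -0.21 without replicate 2). Both PTX libraries were below all KO controls for these chains, and replicate 2 was well below replicate 3. *Col1a1*, at 24.7, 17.6 and 28.7 FPKM in KO controls and at 8.22 and 19.2 FPKM after PTX, overlapped. In FPKM, 9 collagens were lower after PTX in KO with no overlap (*Col15a1*, *Col16a1*, *Col1a2*, *Col23a1*, *Col26a1*, *Col3a1*, *Col4a1*, *Col5a1* and *Col5a2*), beside 10.4% of all genes, and *Col25a1* was higher, beside 11.3%. Of the 28, those whose fitted value went from below to above 0 without KO PTX replicate 2 included *Col4a2* (-0.34 to 0.10) and *Col18a1* (-0.17 to 0.14). *Col25a1* was at 0.79, 0.57 and 0.75 FPKM in KO controls and at 0.81 and 0.91 FPKM after PTX.

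Averaged over both genotypes, PTX was compared over all 11 libraries. Of the 28 collagens, 25 had a fitted change below 0 (50.7% of all genes), and the median was -0.39 against -0.0021 over all genes. No collagen passed the threshold with edgeR (0.0133% of all genes did), and 16 had an unadjusted p under 0.05 (9.36%). Of these 15 were lower (5.53% of all genes) and *Col25a1* was higher (3.83%). DESeq2 called 8 collagens, all of them lower (0.829% of all genes were called, 0.577% as lower): *Col5a2*, *Col4a1*, *Col1a2*, *Col4a2*, *Col18a1*, *Col5a1*, *Col8a1* and *Col15a1*, with adjusted p-values from 0.00412 to 0.0449. Without KO PTX replicate 2, the edgeR fit gave 8 collagens lower at an unadjusted p under 0.05 (3.98% of all genes) and a median of -0.23, and without KO PTX replicate 3 it gave 18 (5.97% of all genes) and -0.54. Each of these fits keeps 1 KO PTX library, labelled female without replicate 2 and male without replicate 3, and its counts depend on that library. Without replicate 3 the log2 fold changes were -0.71 for *Col4a2*, -0.69 for *Col4a1* and -0.48 for *Col5a2*.

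Among the major fibril chains, the averaged log2 fold changes were -0.69 ± 0.22 for *Col3a1*, -0.67 ± 0.21 for *Col1a1* and -0.51 ± 0.14 for *Col1a2* (SE, adjusted p = 0.443, 0.441 and 0.417, edgeR). Leaving out KO PTX replicate 2 gave -0.46, -0.45 and -0.35. The type V chains were at -0.46 ± 0.12 for *Col5a1*, -0.40 ± 0.15 for *Col5a3* and -0.36 ± 0.07 for *Col5a2* (SE, adjusted p = 0.408, 0.483 and 0.342, edgeR). *Col5a2* had the smallest adjusted p of the collagens and also the narrowest error. In the basement membrane network, *Col4a1* was at -0.48 ± 0.12 and *Col4a2* at -0.47 ± 0.12 (SE, adjusted p = 0.384 and 0.408, edgeR). The multiplexins were at -0.43 ± 0.13 for *Col15a1* and -0.39 ± 0.10 for *Col18a1* (SE). When KO PTX replicate 2 was left out, the values were -0.29 for *Col5a1*, -0.22 for *Col5a3*, -0.24 for *Col5a2* and -0.28 for *Col4a1*. They were -0.25 for *Col4a2*, -0.22 for *Col15a1* and -0.24 for *Col18a1*. Each was nearer 0, but replicate 2 was singled out for its low collagen sum, so this move is no separate result. Without KO PTX replicate 3 the values were further from 0 for *Col5a1* (-0.65) and *Col18a1* (-0.54).

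The chains of type VI collagen lay close together, with *Col6a1* at -0.40 ± 0.17, *Col6a3* at -0.38 ± 0.18 and *Col6a2* at -0.38 ± 0.16 (SE). The type VIII chains, which form networks in vessel walls, were at -0.59 ± 0.17 for *Col8a1* and -0.54 ± 0.25 for *Col8a2* (SE), and *Col26a1* was at -0.54. In the fit without KO PTX replicate 2, the chains of type VI were at -0.25 for *Col6a1*, -0.16 for *Col6a3* and -0.25 for *Col6a2*, while *Col8a1* was at -0.43, *Col8a2* at -0.52 and *Col26a1* at -0.28. Several collagens had fitted changes near 0 and smaller than their errors: *Col24a1*, *Col27a1*, *Col11a1* and *Col11a2* among the fibril-forming chains, *Col9a2* and *Col12a1* among the fibril-associated chains, *Col23a1* among the transmembrane chains, and *Col28a1*. *Col28a1*, one of the 4 highest collagens, was at 12.3 to 20.2 FPKM in WT controls, 15.3 to 15.5 FPKM after PTX in WT, 16.98 to 17.91 FPKM in KO controls and 15.6 and 18.3 FPKM after PTX in KO, and its averaged change was -0.08 ± 0.11 (SE).

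**Figure D3:**
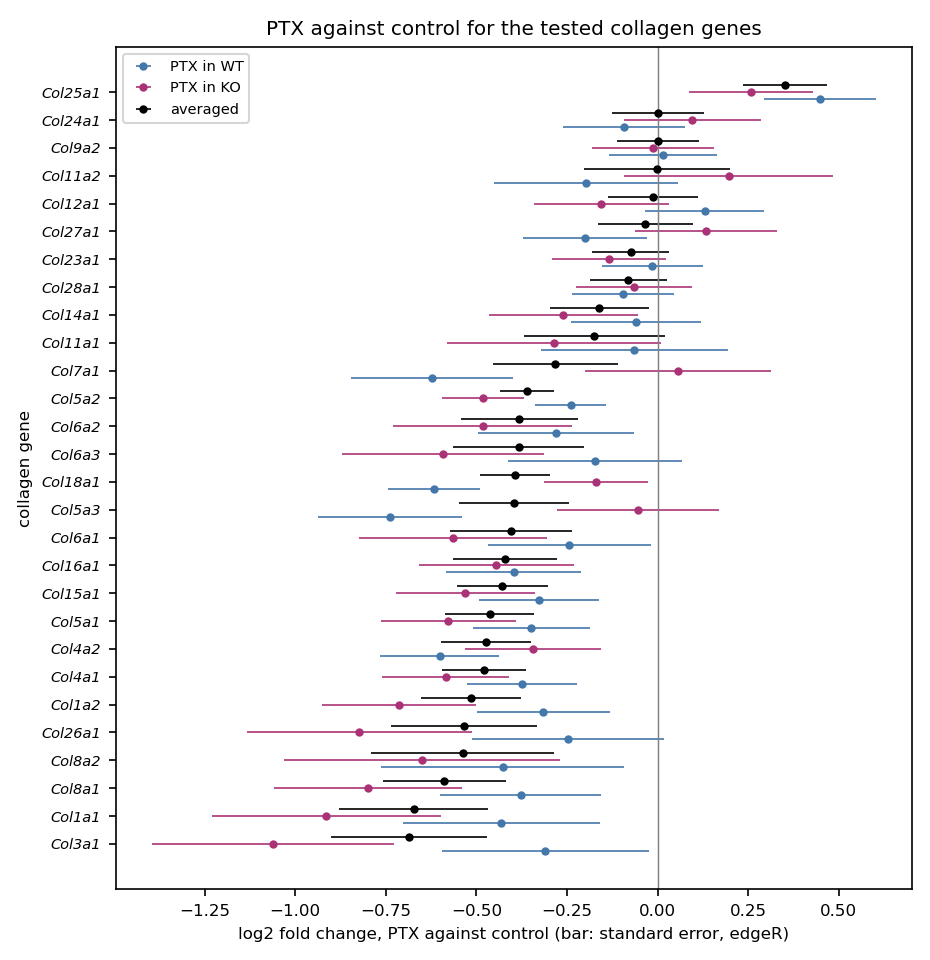
Fitted log2 fold changes of PTX against control for the 28 tested collagens, in WT mice, in KO mice and averaged over genotypes; bars are standard errors from edgeR, and genes are ordered by the averaged value. Most points lie left of 0, *Col3a1* and *Col1a1* are lowest in KO mice and in the average, *Col5a3* is lowest in WT mice (-0.74), and *Col25a1* is the one gene right of 0 by more than its error in each series.

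The 4 collagens that were lower after PTX without overlap in each genotype were *Col15a1*, *Col4a1*, *Col5a1* and *Col5a2* (0.941% of all genes were lower in this way), and *Col25a1* was higher without overlap in each (1.09%). *Col15a1*, a multiplexin at the edge of basement membranes, was at 9.58, 9.13 and 9.63 FPKM in WT controls, 7.26, 8.92 and 6.47 FPKM after PTX in WT, 10.5, 10.2 and 9.90 FPKM in KO controls, and 5.39 and 8.88 FPKM after PTX in KO. *Col5a1* was at 4.01, 3.21 and 3.99 FPKM in WT controls and at 3.02, 3.11 and 2.66 FPKM after PTX. The 120 bases upstream of a RefSeq start are given for 4 genes whose window holds no annotated exon. They are genes of this group and *Col3a1*, which had the lowest fitted change in KO mice and in the average. The *Col25a1* start lies inside the gene as counted (130131501 to 130596321), so its window does not lie before that gene. The sequences are from RefSeq on GRCm38.p6, all on the plus strand, written 5′ to 3′ in lower case, and capitals mark the TATA box letters TATAAA, the CAAT box letters CCAAT or the GC box letters GGGCGG, read on either strand.
*Col3a1* (chr1:45311418-45311537): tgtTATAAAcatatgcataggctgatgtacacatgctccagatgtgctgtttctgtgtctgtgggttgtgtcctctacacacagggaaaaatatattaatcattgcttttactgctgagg
*Col5a1* (chr2:27886305-27886424): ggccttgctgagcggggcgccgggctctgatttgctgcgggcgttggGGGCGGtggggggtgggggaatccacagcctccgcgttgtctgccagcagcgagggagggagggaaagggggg
*Col15a1* (chr4:47207892-47208011): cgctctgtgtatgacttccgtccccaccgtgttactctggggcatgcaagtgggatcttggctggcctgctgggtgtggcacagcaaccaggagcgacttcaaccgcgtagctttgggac
*Col25a1* (chr3:130180725-130180844): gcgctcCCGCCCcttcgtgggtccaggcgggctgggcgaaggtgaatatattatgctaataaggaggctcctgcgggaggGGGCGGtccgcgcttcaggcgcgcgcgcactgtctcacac

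The *Col3a1* window holds TATAAA, the *Col5a1* window holds GGGCGG once and the *Col25a1* window holds it on both strands, while the *Col15a1* window holds none of the motifs. Over the 250 bases upstream of 38 RefSeq starts, which matched 35 collagens, GGGCGG was found on either strand in 57.9% of collagen windows, against 32.7% of 32841 windows of all genes. CCAAT was found in 34.2% against 33.9% and TATAAA in 13.2% against 12.4%. The motifs share no letters where capitals are shown, and a match describes the letters and not a bound site. The windows are not independent where genes start close together.

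Whether the PTX difference itself differed between genotypes was asked by the interaction term. No collagen passed the threshold (0.00663% of all genes did, edgeR), and 2 had an unadjusted p under 0.05 (6.30% of all genes), *Col18a1* and *Col5a3*, both with a PTX difference less far below 0 in KO. For *Col18a1* the interaction was 0.45 ± 0.19 and for *Col5a3* 0.69 ± 0.29 on the log2 scale (SE, adjusted p = 0.724 each, edgeR). They were 0.76 and 1.02 without KO PTX replicate 2, and 0.16 and 0.33 without replicate 3. *Col18a1* was at 4.95, 4.6 and 3.71 FPKM in KO controls and at 3.47 and 4.05 FPKM after PTX, and these groups overlapped, as did those of *Col5a3* at 16.1, 16.8 and 12.3 FPKM against 12.8 and 14.5 FPKM. Without KO PTX replicate 3, 10 collagens had an unadjusted p under 0.05 for the interaction (3.36% of all genes in the same fit), all of them below 0, and the median over collagens went from -0.20 to -0.45. With replicate 2 left out in its place, 5 had such a p (9.94% of all genes), none of them below 0, and that median was 0.14.

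Between KO and WT controls, collagens showed no common direction. The fitted change was below 0 for 9 of the 28 (49.2% of all genes) and above 0 for 19, and the median was 0.03. None passed the threshold (0.00663% of all genes, edgeR) and 4 had an unadjusted p under 0.05 (7.54% of all genes). *Col5a2*, at 6.17 to 6.62 FPKM in KO controls and 4.96 to 5.43 FPKM in WT controls, was higher without overlap (0.32 ± 0.10, SE, adjusted p = 0.657, edgeR). *Col25a1* was at 0.57 to 0.79 FPKM against 0.41 to 0.58 FPKM (0.48 ± 0.15, SE, adjusted p = 0.657, edgeR), *Col7a1* at 0.59 to 0.86 FPKM against 0.79 to 1.31 FPKM (-0.61 ± 0.22, SE) and *Col5a3* at 12.3 to 16.8 FPKM against 12.6 to 27.1 FPKM (-0.46 ± 0.20, SE), each with overlap. *Col15a1* and *Col5a2* were the collagens higher in KO controls without overlap (4.55% of all genes), and no collagen was lower in that way (4.73%). The WT controls are the same libraries as in the comparison of PTX in WT.

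After PTX, KO and WT libraries gave no collagen past the threshold (0.0133% of all genes, edgeR) and none at an unadjusted p under 0.05 (3.55% of all genes). This count was 6 without KO PTX replicate 2 (7.23% of all genes), none of them below 0, and 11 without KO PTX replicate 3 (2.43%), all below 0. It was 8 without WT PTX replicate 3 (4.23%), 7 of them below 0. *Col11a2* was at 0.77 and 0.88 FPKM in KO PTX and at 0.56, 0.69 and 0.55 FPKM in WT PTX (0.58 ± 0.28, SE, adjusted p = 0.993, edgeR), with a fitted value of 1.03 without KO PTX replicate 2 and 0.11 without replicate 3. *Col11a2*, *Col25a1* and *Col28a1* were higher in KO PTX without overlap (10.7% of all genes), and none was lower (9.58%). *Col1a2*, *Col3a1* and *Col8a1* had fitted changes of -0.36, -0.53 and -0.39, which without KO PTX replicate 2 were 0.01, -0.01 and -0.06. The KO effect averaged over treatments gave no call (0.0133% of all genes, edgeR) and 2 collagens at an unadjusted p under 0.05 (3.75% of all genes), *Col25a1* at 0.39 ± 0.12 and *Col5a2* at 0.19 ± 0.07 (SE, adjusted p = 1.00 each, edgeR). They were 0.40 and 0.31 without KO PTX replicate 2, and 0.37 and 0.08 without replicate 3. DESeq2 called no collagen in the interaction, between controls, after PTX or for the averaged KO effect (0.0795%, 0.278%, 0.0663% and 0.186% of all genes).

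**Figure D4:**
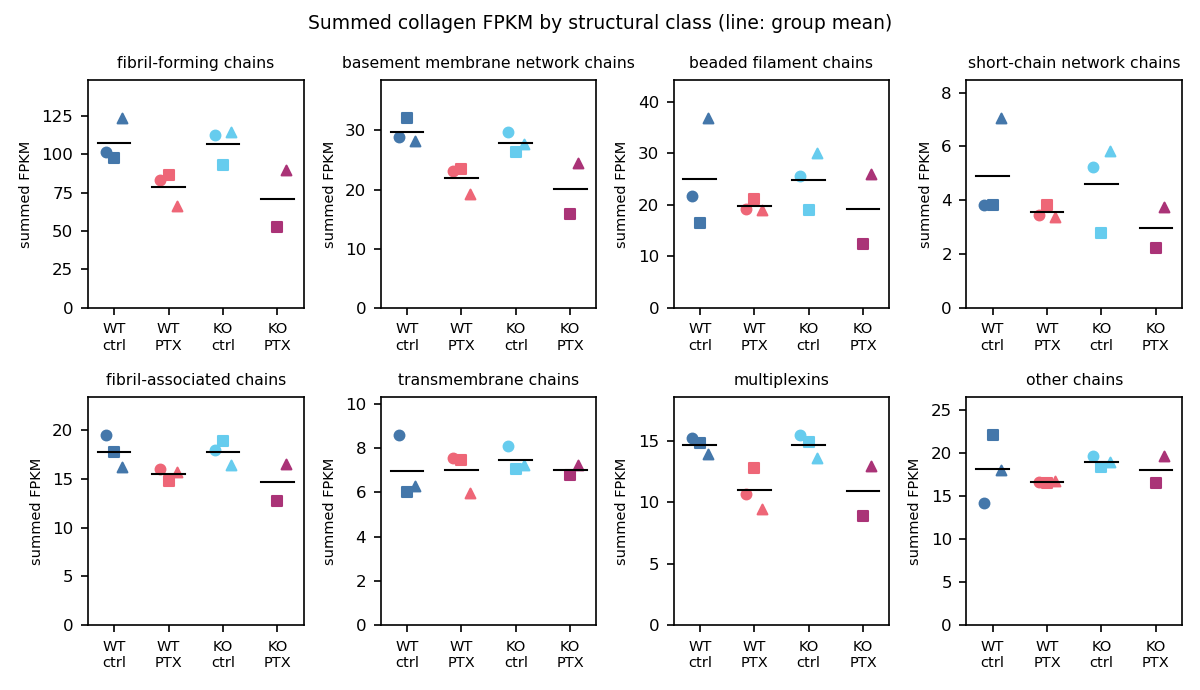
Summed FPKM of each structural class of collagens in every library, by group; circles, squares and triangles are replicates 1, 2 and 3, and the line is the group mean. Fibril-forming and basement membrane chains are lower in the WT PTX libraries than in the WT controls, and the 2 KO PTX libraries lie far apart, at 52.5 and 89.8 FPKM for fibril-forming chains.

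Genes that make, modify and break down collagen were read from lists for the averaged PTX effect, and none passed the threshold. Over all genes tested, 5.53% were lower at an unadjusted p under 0.05. Matrix partners, the proteins that bind or lie beside collagens, were below 0 for all 25 tested, with a median of -0.25, and 17 were lower at that level. The count was 4 without KO PTX replicate 2 (3.98% of all genes), with a median of -0.17, and 20 without replicate 3 (5.97%). Their summed FPKM was 347 in KO PTX replicate 2, the lowest of the 11 libraries, and 401.5 to 555 in the others. They included *Eln*, elastin, at -0.97 ± 0.21, *Lamb1*, a laminin chain, at -0.20 ± 0.05 and *Hspg2*, perlecan, at -0.45 ± 0.11 (SE, adjusted p = 0.368, 0.384 and 0.385, edgeR). Of enzymes and chaperones that modify and fold new chains, 7 of 25 were lower at that level (median -0.10), led by *Serpinh1*, the collagen chaperone HSP47, at -0.45 ± 0.10, *Crtap* at -0.33 and *Plod3*, a lysyl hydroxylase, at -0.27. *Serpinh1* was at 33.6, 33.1 and 36.9 FPKM in WT controls, 28.8, 33.5 and 24.8 FPKM after PTX in WT, 31.7, 34.5 and 34.4 FPKM in KO controls, and 18.3 and 24.96 FPKM after PTX in KO. It overlapped in WT, and both KO PTX libraries were below the KO controls, as they were for several chains it folds.

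Of propeptide-removing and cross-linking enzymes, 5 of 10 were lower at an unadjusted p under 0.05 (median -0.31), led by the lysyl oxidases *Loxl2* at -0.90 and *Lox* at -0.61, and by *Bmp1*, a procollagen proteinase, at -0.32. Of collagen-degrading enzymes and their inhibitors, 6 of 13 were lower (median -0.21), among them *Timp1*, an inhibitor of metalloproteinases, at -1.07, and the proteinases *Mmp14* at -0.33 and *Mmp2* at -0.47. Collagen receptors held 2 of 10 lower (median -0.14), *Ddr2*, a receptor tyrosine kinase for fibrillar collagen, at -0.28 and *Cspg4* at -0.36, while *Itga10* was at -0.62 with a wider error. TGF-beta signalling, a pathway that drives collagen transcription, held 2 of 15 lower (median -0.06), *Tgfbr2* at -0.21 and *Thbs1* at -0.53, and *Ltbp1* was at -0.16. No gene of these 6 lists was higher at that level for the averaged effect. In the fit without KO PTX replicate 2, the counts lower were 4 of 25 for modification and folding, 2 of 10 for propeptide removal and cross-linking, 3 of 13 for breakdown, 0 of 10 for receptors and 0 of 15 for TGF-beta signalling, beside 3.98% of all genes, and 1 gene each of the breakdown and receptor lists was then higher.

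Marker lists of the cells around the neurons moved with some of these values. Fibroblast markers, none at 0 in any library, summed to 222 to 320 FPKM in WT controls, 231 to 309 FPKM after PTX in WT, 276 to 321 FPKM in KO controls, and 192 and 294 FPKM after PTX in KO. KO PTX replicate 2 was the lowest library in this sum, as in the collagen sum. It was also the lowest of the 11 for markers of myelinating Schwann cells (1262 FPKM, against 1572 to 2214 FPKM), of pericytes and vascular smooth muscle (32.8 against 41.5 to 89.0 FPKM), of perineurium (45.5 against 49.3 to 54.9 FPKM) and, just, of endothelium (23.77 against 23.82 to 30.1 FPKM). It was not the lowest for satellite glia (1122, in a range of 1072 to 1507 FPKM) or macrophages (41.7, in 38.3 to 67.5 FPKM). Nor was it for leptomeninges (96.3, in 63.1 to 354 FPKM), sensory neurons (4032, in 3721 to 4614 FPKM) or non-myelinating Schwann cells (391.8, in 344 to 456 FPKM). In WT the 10 fibroblast markers had a median log2 change of 0.03 after PTX, with 5 below 0 and 5 above, while in KO all 10 were below 0 with a median of -0.38. All 8 macrophage markers were below 0 in WT after PTX, and their summed FPKM was 54.5 to 67.5 in WT controls and 38.3 to 49.7 after PTX. In KO, 6 of the 8 were below 0, and the sum was 50.5 to 60.2 in controls and 41.7 and 46.4 after PTX.

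Skeletal muscle markers ran from 15.3 to 537 FPKM in WT controls, 3.31 to 179 FPKM after PTX in WT, 106 to 594 FPKM in KO controls, and 97.1 and 67.6 FPKM after PTX in KO. All 9 that were tested were below 0 for the averaged effect (median -2.19). In WT the libraries lowest in muscle markers were control replicate 2, with a collagen sum of 211 FPKM, and PTX replicate 3, with 156 FPKM. Both collagen sums were the lowest of their group. In KO they were control replicate 3, with a collagen sum of 235 FPKM, and PTX replicate 3, with 201 FPKM. Both were the highest of their group. Spinal cord markers reached 11.4 and 27.9 FPKM after PTX in KO against 3.63 to 10.6 FPKM in the other 9 libraries, and 4 of the 9 (*Mog*, *Opalin*, *Olig1* and *Olig2*) were at 0 in 4 to 7 of the 11 libraries, the other 5 in none. Cartilage markers stayed at 17.7 to 26.5 FPKM. Of these 11, *Matn1*, *Matn3*, *Snorc* and *Ucma* were at 0 in 9 or more libraries and *Mia* in 5, while *Acan*, *Comp*, *Sox9*, *Chad*, *Cnmd* and *Hapln1* were at 0 in none. The part of these cells and tissues in the collagen values was not tested, and in whole ganglia fewer cells of a type and less RNA per cell cannot be told apart. Within each group, libraries labelled male and female came from different animals. The labels do not say whether a library came from 1 mouse or from pooled animals. The p-values measure the spread between these samples, which may in part be technical.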

How the data were processed

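Poly(A) RNA of mouse DRGs was sequenced with a strand-specific kit, 1 library for each of 11 samples. The submitters' processing notes name cutadapt, FastQC, HISAT2, StringTie and the build mm10 without versions. The annotation and how counts were derived are not given in the sources used here. The authors deposited FPKM values, scaled by them for transcript length and library size, and estimated counts without normalization in a single table. The members and gene lists were chosen with earlier results of these data known. Groups and replicate numbers came from the sample labels, and for KO PTX the numbers 2 and 3 of the descriptions were used, since the titles number these libraries differently.

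FPKM were used as deposited. Estimated counts were rounded to whole numbers and tested with edgeR 4.0.16 in R 4.3.3 (TMM, quasi-likelihood test, all 11 libraries in one fit, labelled sex as covariate). The 15087 genes with a mean of at least 0.5 FPKM were tested, with Benjamini-Hochberg adjustment over all of them and a threshold of 0.05. Standard errors were derived as log2 fold change over the root of the F statistic. DESeq2 1.42.0 and limma 3.58.1 were alternatives. The script was tested on simulated data, with changes larger than most of those fitted for collagens, so smaller changes were not covered. Genes named are the 10 highest collagens, the 5 smallest p-values of each comparison, chains of a pair, cartilage collagens and the first 3 of each list. Others were named after their values were seen. Same-numbered libraries are different mice and were not paired in the main fit. Their deviations correlated at -0.23 to 0.23 (mean 0.0525), and those of other pairs at -0.23 to 0.24 (mean -0.0262). Promoters came from RefSeq, and coordinates were matched to GENCODE M21 for 38 collagens. Tables and plots used version 1.17.8 of data.table, matplotlib 3.10.9, pandas 2.3.3, numpy 2.4.6 and Python 3.11.15.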

Additional observations from a re-analysis of the deposited data

How the results depend on the processing

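None of the 7 comparisons called a collagen with edgeR under another scaling, filter or covariate, nor with limma. A fit of only the compared groups was made for the 4 comparisons of 2 groups, and it called none. It was not made for the interaction or the averaged effects. DESeq2 called 2 collagens after PTX in WT, 1 in KO and 8 for the averaged PTX effect, and 0 in the other 4 comparisons. The cause was not tested. With each library left out in turn, edgeR called 0 to 1 collagens after PTX in WT, 0 in KO and 0 to 3 for the average. Collagens lower at an unadjusted p under 0.05 then numbered 5 to 9 in WT, 1 to 16 in KO and 8 to 18 for the average, with the ends of the last 2 ranges set by KO PTX replicates 2 and 3. Without the filter on low values, 14 of 44 were lower at that level for PTX in KO (2.02% of all genes). Without KO PTX replicate 2, fitted values changed sign for *Col1a2* in KO against WT after PTX (0.0089, range over libraries left out -0.70 to 0.0089), for *Col5a2* in the interaction (0.0089, range -0.45 to 0.0089) and for *Col1a2* in the KO effect averaged over treatments (0.017, range -0.34 to 0.017). As a share of estimated counts, collagens made up 0.167% on average in place of 0.0696% of FPKM. With the replicate number as a block in place of sex, no collagen passed (0) for PTX in WT or in KO, and 7 and 9 were lower at an unadjusted p under 0.05 (6.30% and 2.28% of all genes). Of 11 libraries, 7 correlated best with their own number. A correlation over 0.1 was found in 5 of 15 same-numbered pairs and in 4 of 30 other pairs. These counts cannot show pairing, since the 2 KO PTX libraries deviate from their mean by equal and opposite amounts. Labelled sex, which goes with replicate number 3, was not removed from the deviations either. The other collagens among the 5 smallest p-values of each comparison kept their direction. Over all 28, between 8 (PTX averaged) and 21 (KO against WT after PTX) changed sign in at least 1 alternative. With 2 KO PTX libraries that differ, the size of the PTX difference in KO is poorly known, and a fit without either of them keeps 1.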

Other observations

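The fit also gave a term for labelled sex, which was looked at after the other values were seen. Female and replicate number 3 cannot be told apart here. No collagen passed the threshold (0 of 28; 0.0398% of all genes did, edgeR), and 7 had an unadjusted p under 0.05, against 8.44% of all genes. The chains of type VI and type VIII collagen were higher in the libraries labelled female, with log2 differences of 0.66 ± 0.17 for *Col6a2*, 0.57 ± 0.17 for *Col6a1*, 0.51 ± 0.17 for *Col8a1* and 0.59 ± 0.26 for *Col8a2* (SE; adjusted p = 0.431, 0.457, 0.512 and 0.576, edgeR). *Col11a2* (-0.53), *Col18a1* (-0.25) and *Col5a3* (-0.35) were lower.

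*Col6a1* was at 20.9 FPKM in the female WT control against 12.5 and 9.29 FPKM in the male WT controls. In KO controls it was at 17.6 FPKM against 14.9 and 10.9 FPKM, and after PTX in KO at 14.9 against 6.92 FPKM. After PTX in WT the order was not the same, since the female library had 10.7 FPKM against 10.8 and 12.3 FPKM.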
